A study of Homo sapiens with 6 samples.

Results

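The 10 genes described here are regulators and marker genes of the epithelial-mesenchymal transition (EMT): the cadherins CDH1 and CDH2, the intermediate filament gene VIM, the repressors ZEB1, ZEB2, SNAI1, SNAI2 and TWIST1, the adhesion molecule EPCAM and the epithelial factor GRHL2. They were chosen by name from what is known of EMT. The rule uses no measured value, although it was set with earlier results of these data known, and all 10 were found by symbol among the 57736 Ensembl genes of the deposited count table. RNA was sequenced from PC3 cells, a human prostate cancer line established from a bone metastasis, in samples labelled siMic60 (3 libraries), the name the study uses for a Mic60-directed siRNA, or siCTRL (3 libraries), for a non-targeting control siRNA. The labels also name the siMic60 samples Mic60 KO and the siCTRL samples Mic60 WT. Mic60, encoded by IMMT, is a structural protein of the mitochondrial inner membrane. One cell line and 1 Mic60-directed group were sequenced. The study's methods describe siRNA transfection for pancreatic cancer lines, and for the PC3 samples neither the transfection nor the time after it is stated. A general statement in the study says that its data come from independent biological replicates, but the labels do not say that these 6 samples were separate cultures, and the spread behind each p-value may then be technical.

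In EMT, epithelial cells lose the junctions that hold them to their neighbours and gain a motile, mesenchymal state. E-cadherin, encoded by CDH1, joins epithelial cells to each other through catenins, and the ZEB, SNAI and TWIST factors can repress it by binding short E-box words in DNA. N-cadherin and vimentin are usually made by mesenchymal cells, whereas GRHL2 maintains epithelial genes and opposes ZEB1. PC3 cells are known for an intermediate state in which markers of both kinds are found together, and for a deletion in the gene of α-catenin, the protein that links cadherins to actin.

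After Mic60 silencing, SNAI2, VIM and ZEB1 rose and EPCAM fell, while CDH1, CDH2, TWIST1, ZEB2 and GRHL2 did not pass the test and SNAI1 was too low to be tested. The changes were moderate in size, between 1.39-fold and 1.76-fold for the genes that rose and to 59.5% of the control level for EPCAM. Thus 4 of the 9 members tested were called (44.4%), 3 higher and 1 lower. Of all 14653 genes tested, 35.5% were called, 17.7% higher and 17.9% lower, so the share among the members was not far from the background of these cells. The groups did not overlap for 5 of the 9 members, SNAI2, VIM, ZEB1, TWIST1 and EPCAM, against 47.9% of all genes tested. A gene was tested with at least 10 counts in at least 3 libraries, and was called at an adjusted p under 0.05 from edgeR's quasi-likelihood test with Benjamini-Hochberg adjustment over all genes.

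The libraries held 6644495 to 8779877 counts in siMic60 and 7714837 to 8396244 counts in siCTRL cells. Levels are given as CPM, counts scaled to a common library total after TMM normalization, and 3 counts in a library correspond to 0.346 to 0.46 CPM. IMMT, the silenced gene, was at 5.83, 7.34 and 8.53 CPM in the siMic60 libraries, against 88.9, 91.2 and 90.4 CPM in the siCTRL libraries. By the chi-square of counts per degree of freedom, siCTRL replicate 1 differed from the other siCTRL libraries by 11.05 and 13.8, against 3.57 between replicates 2 and 3. Pairs of siMic60 libraries lay at 8.36 to 10.4, not far below the values of siCTRL replicate 1, and siCTRL replicates 2 and 3 were the closest pair. Among the members, siCTRL replicate 1 was the lowest of its group for 7 of the 10 and the highest for 2. For PC3 identity, the α-catenin gene CTNNA1 had 3, 1 and 1 counts in siMic60 and 6, 3 and 0 counts in siCTRL libraries, and KLK3, the gene of prostate-specific antigen, which PC3 cells are known to lack, had no count in any library.

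The levels of the members spanned several orders of magnitude. Because each 3′ library fragment marks the end of 1 transcript, the CPM values were not divided by gene length. VIM had the highest level in every library, followed by CDH2, and the lowest levels were those of GRHL2, ZEB2 and SNAI1. In siMic60 cells, ZEB1 came next after CDH2, and SNAI2, EPCAM and CDH1 lay within each other's ranges, between 20.2 and 31.3 CPM. In siCTRL cells the order after CDH2 was EPCAM, ZEB1, CDH1, TWIST1 and SNAI2, in which CDH1 and TWIST1 overlapped, and EPCAM lay above ZEB1 in all 3 libraries. SNAI2 thus stood below TWIST1 in every siCTRL library and above it in every siMic60 library.

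**Figure D1:**
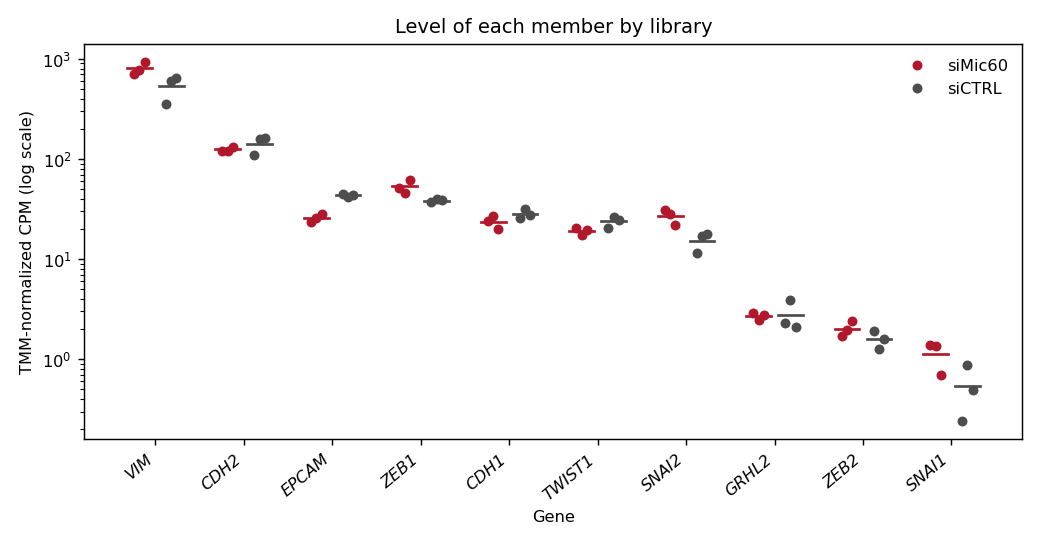
TMM-normalized CPM on a log axis for the 10 members, ordered by their siCTRL mean, with 1 point for each of the 3 siMic60 libraries (red, left) and 3 siCTRL libraries (grey, right) and a line at each mean. The siMic60 libraries lie above the siCTRL libraries for VIM, ZEB1 and SNAI2 and below them for EPCAM and TWIST1.

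Among the 4 repressors tested, SNAI2 (ENSG00000019549), which encodes the zinc finger factor SLUG, had the largest fold change. It was at 31.3, 28.3 and 21.8 CPM in the siMic60 libraries, against 11.5, 16.9 and 17.6 CPM in the siCTRL libraries. The groups did not overlap, and the lowest siCTRL value was that of replicate 1. The rise was 1.76-fold (95% interval 1.33 to 2.34, log2 fold change 0.82 with a standard error, SE, of 0.19, adjusted p = 0.00386 from edgeR). It passed the test under all 13 alternatives of processing, with the smallest log2 fold change, 0.64, without siCTRL replicate 1.

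ZEB1 (ENSG00000148516) encodes a zinc finger and homeodomain factor that represses CDH1 and is itself held down by the miR-200 family. Its level was 51.4, 46.0 and 62.3 CPM in siMic60 libraries, against 36.9, 39.5 and 38.6 CPM in siCTRL libraries. The groups did not overlap, and the siMic60 libraries were spread over a wider range than the siCTRL libraries. ZEB1 rose 1.39-fold (95% interval 1.13 to 1.70, log2 fold change 0.47, SE 0.14, adjusted p = 0.014 from edgeR). Without siMic60 replicate 3, its highest library, the log2 fold change was 0.34 and the call was lost (adjusted p = 0.0774 from edgeR, the highest over its alternatives, which began at 0.00606). ZEB1-AS1, an antisense neighbour, was at 1.99 to 2.69 CPM in siMic60 and 1.97 to 2.88 CPM in siCTRL libraries, far below ZEB1 itself, and did not pass the test (log2 fold change −0.017). This bears on ZEB1 because no source states whether the counting used strand.

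The word bound by the ZEB and SNAI repressors, CAGGTG on either strand, was searched in the 250 bases before each RefSeq transcript start (GRCh38.p14). It was present in 17.5% of the 35116 windows of all genes. Windows were at hand for 4 of the 10 members, CDH2, VIM, ZEB1 and ZEB2, and the word was in 2 of their 11 windows, both of them starts of ZEB1, a gene with 7 such windows. The windows of ZEB1 and VIM are printed because both genes rose. That of DSG2, a desmosomal cadherin described further on, was added after its values were seen because it rose the most among the other cadherins. Capitals mark the word, which lies 242 and 85 bases before the start in ZEB1, 232 and 116 bases before it in DSG2, and is not in the window of VIM. ZEB1 is the start with most matches, at chr10:31318966-31319215, VIM is at chr10:17227991-17228240 and DSG2 at chr18:31497927-31498176, all on the plus strand. Windows with at least 2 matches made up 2.53% of those of all genes. That share is per single window and is no background for ZEB1, whose window was picked among 7 for its matches. Nor is it one for DSG2, which was picked for its rise. A match is given as a description of the letters, and binding was not measured.
ZEB1: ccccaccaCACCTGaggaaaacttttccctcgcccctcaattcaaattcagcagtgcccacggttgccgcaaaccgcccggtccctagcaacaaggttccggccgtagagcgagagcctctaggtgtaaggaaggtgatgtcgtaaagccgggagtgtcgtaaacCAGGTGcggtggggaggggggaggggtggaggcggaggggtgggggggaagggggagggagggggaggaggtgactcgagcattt
VIM: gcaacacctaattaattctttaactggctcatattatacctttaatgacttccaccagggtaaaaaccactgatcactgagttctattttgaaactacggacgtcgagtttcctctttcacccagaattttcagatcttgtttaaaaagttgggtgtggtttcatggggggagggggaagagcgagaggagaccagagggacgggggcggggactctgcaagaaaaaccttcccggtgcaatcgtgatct
DSG2: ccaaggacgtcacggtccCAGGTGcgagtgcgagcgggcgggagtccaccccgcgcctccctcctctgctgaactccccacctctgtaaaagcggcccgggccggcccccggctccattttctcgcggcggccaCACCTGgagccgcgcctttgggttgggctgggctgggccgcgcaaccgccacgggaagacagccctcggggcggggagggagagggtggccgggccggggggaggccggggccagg

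The other repressors were either unresolved or low. TWIST1 (ENSG00000122691), a basic helix-loop-helix factor, was at 20.2, 17.3 and 19.6 CPM in siMic60 libraries, against 20.5, 26.1 and 24.7 CPM in siCTRL libraries. The groups did not overlap, but the highest siMic60 library lay just under siCTRL replicate 1, and the difference did not pass the test (log2 fold change −0.32, SE 0.16, 95% interval −0.66 to 0.013, adjusted p = 0.126 from edgeR). ZEB2 (ENSG00000169554), the close relative of ZEB1, was at 1.69, 1.96 and 2.42 CPM in siMic60 libraries and 1.92, 1.25 and 1.60 CPM in siCTRL libraries. These overlapping values rest on 48 and 39 counts over each group's libraries, and the interval of the fold ran from 0.711 to 2.29 (adjusted p = 0.526 from edgeR). The antisense gene ZEB2-AS1 had no count in any library.

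SNAI1 (ENSG00000124216), which encodes SNAIL, the relative of SLUG, had 9, 11 and 6 counts in siMic60 libraries, against 2, 7 and 4 counts in siCTRL libraries. The groups overlapped, and the gene did not reach the minimum count. The ratio of the summed counts, 26 in siMic60 over 13 in siCTRL, was 2.09 after scaling (95% exact conditional interval 1.04 to 4.44, for counting error only). When no minimum count was set, the fitted log2 fold change of SNAI1 was 1.07 with a standard error of 0.71 (adjusted p = 0.336 from edgeR). A change of SNAI1 was thus not detectable at this depth once the spread between libraries was counted.

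VIM (ENSG00000026025), the gene of the filament protein vimentin, was at 708, 777 and 933 CPM in the siMic60 libraries. In the siCTRL libraries it was at 356, 597 and 641 CPM. All siMic60 libraries were above all siCTRL libraries, although the distance between the nearest 2 of them was small beside the spread within siCTRL, where replicate 1 was far below the others. VIM rose 1.52-fold (95% interval 1.16 to 1.97, log2 fold change 0.60, SE 0.18, adjusted p = 0.0163 from edgeR). Without siCTRL replicate 1 the log2 fold change was 0.38 and was still called (adjusted p = 0.0308), and without siMic60 replicate 3 it was 0.48 and was not (adjusted p = 0.0891, both from edgeR). Over all alternatives the adjusted p of VIM lay between 5.1e-06 and 0.0891. VIM-AS1 had at most 8 counts in any library.

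EPCAM (ENSG00000119888), an adhesion molecule of epithelial cell surfaces, was at 23.6, 25.6 and 28.5 CPM in siMic60 libraries, against 45.1, 41.7 and 44.1 CPM in siCTRL libraries. The groups lay far apart, with narrow ranges within each. EPCAM fell to 59.5% of the control level (log2 fold change −0.75, SE 0.13, 95% interval −1.03 to −0.47, adjusted p = 4.86e-04 from edgeR). It had the smallest adjusted p of the members and was called lower under all 13 alternatives, with log2 fold changes between −0.82 and −0.68. In bulk RNA, fewer cells expressing a gene and less RNA of it per cell cannot be told apart, which holds for EPCAM and for every value given here.

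CDH1 (ENSG00000039068) was at 24.2, 26.8 and 20.2 CPM in siMic60 libraries, against 25.6, 31.6 and 27.4 CPM in siCTRL libraries. The groups overlapped, and CDH1 did not pass the test (log2 fold change −0.25, SE 0.15, adjusted p = 0.227 from edgeR). The 95% interval of its fold ran from 0.669 to 1.06, and the estimate for EPCAM, 59.5% of the control level, lies outside it. The interval of the fold of EPCAM, 0.489 to 0.723, overlaps that of CDH1, and the changes of these genes were not compared by a test. CDH1 was not called under any of the 13 alternatives.

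CDH2 (ENSG00000170558), the gene of N-cadherin, was more abundant than CDH1 in every library. It was at 121, 120 and 132 CPM in siMic60 libraries, against 110, 157 and 161 CPM in siCTRL libraries. The siMic60 values lay between siCTRL replicate 1 and the other siCTRL libraries, and CDH2 did not pass the test (log2 fold change −0.20, SE 0.14, adjusted p = 0.305 from edgeR). Without siCTRL replicate 1 it was called lower, with a log2 fold change of −0.36 (adjusted p = 0.0251 from edgeR, the lowest over its alternatives, which ran up to 0.645). GRHL2 (ENSG00000083307), which activates CDH1 and other junction genes, was at 2.91, 2.45 and 2.77 CPM in siMic60 and 2.28, 3.88 and 2.10 CPM in siCTRL libraries. These overlapping values came from 63 and 67 counts over each group's libraries, the estimate was near 0 (log2 fold change −0.023, SE 0.36, adjusted p = 0.97 from edgeR), and the interval of the fold, 0.576 to 1.68, was wide.

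**Figure D2:**
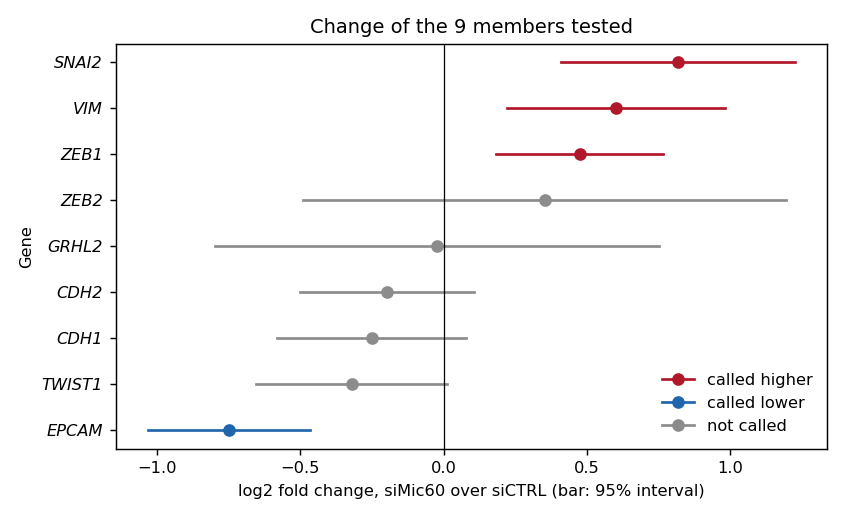
Log2 fold change of siMic60 over siCTRL with its 95% interval for the 9 members tested, in red where called higher, blue where called lower and grey where not called. SNAI2 (0.82), VIM (0.60) and ZEB1 (0.47) lie right of 0 with their whole intervals and EPCAM (−0.75) left of it, and the intervals of ZEB2 and GRHL2 are the widest.

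Ratios of the counts of 2 members within a library do not depend on how libraries are scaled, and they are given as a description without a test. The cadherin ratio, CDH1 over CDH2, was 0.200, 0.223 and 0.152 in siMic60 and 0.233, 0.201 and 0.170 in siCTRL libraries. These values overlapped almost wholly. CDH1 over VIM was 0.0342, 0.0345 and 0.0216 in siMic60 libraries, against 0.0720, 0.0530 and 0.0427 in siCTRL libraries. EPCAM over VIM was 0.0334, 0.0329 and 0.0305 in siMic60 libraries, against 0.127, 0.0697 and 0.0688 in siCTRL libraries. Both ratios to VIM were lower in every siMic60 library, and EPCAM over VIM varied little among siMic60 libraries and stood out in siCTRL replicate 1. ZEB1 over CDH1 was 2.12, 1.72 and 3.09 in siMic60 and 1.44, 1.25 and 1.41 in siCTRL libraries, so that ZEB1 transcripts outnumbered those of CDH1 in every library, and by more in siMic60 cells.

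**Figure D3:**
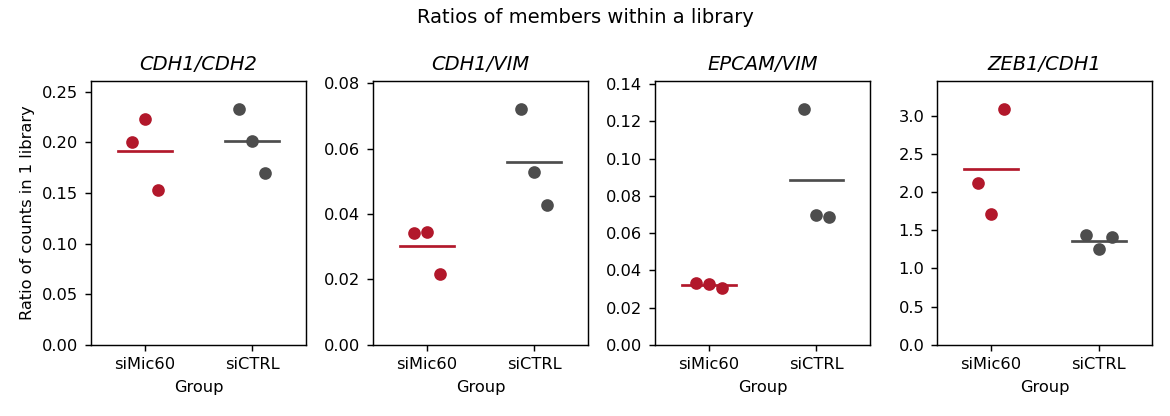
Ratio of the counts of 2 members within each library, on linear axes from 0, for 3 siMic60 libraries (red, left) and 3 siCTRL libraries (grey, right) with a line at each mean. CDH1/CDH2 overlaps between the groups, CDH1/VIM and EPCAM/VIM are lower in all siMic60 libraries, and ZEB1/CDH1 is higher in them.

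Other genes of the EMT programme were grouped in lists, and up to 4 called genes with the smallest adjusted p are named in each. The share called in each list is given for comparison with the 35.5% called over all genes tested, and no list was tested as a set. Among 17 other transcription factors tied to EMT, 11 were tested, of which 3 rose, 1 fell and 7 were not called. The share called was thus 36.4%, near that over all genes, and the median log2 fold change was 0.18, against 0.0022 over all genes tested. SOX4, a factor that can drive EMT, fell to 341 ± 19.1 CPM (SD, n = 3) after siMic60, against 808 ± 80.1 CPM (SD, n = 3) after siCTRL. ID1 and ID3, inhibitors of helix-loop-helix factors, rose 2.20-fold and 1.59-fold, and the forkhead factor FOXC1 rose 1.64-fold. ID1, like VIM, was low in siCTRL replicate 1, at 151 CPM against 288 and 280 CPM in the other siCTRL libraries, but all siMic60 libraries were above 500 CPM.

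Among 15 regulators of the epithelial programme, 11 were tested, of which 3 rose, 1 fell and 7 were not called (36.4% called, median log2 fold change −0.025). The epithelial splicing factor ESRP1 rose to 11.9 ± 0.87 CPM in siMic60 cells, against 6.05 ± 1.52 CPM in siCTRL cells, or 1.95-fold, and its relative ESRP2 did not pass the test (log2 fold change −0.041). KLF4 and KLF5, Krüppel-like factors of epithelia, rose 2.43-fold and 1.49-fold. FOXA2, a pioneer factor of endodermal epithelia, fell to 71.2 ± 11.1 CPM after siMic60, against 169 ± 6.35 CPM after siCTRL.

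Of 27 other classical and desmosomal cadherins, 11 were tested, 8 had no count in any library, and 2 rose while 9 were not called. The share called was 18.2%, against 35.5% over all genes tested, and the median log2 fold change was −0.097. Both that rose are desmosomal. DSG2, desmoglein 2, was at 81.0, 67.6 and 70.1 CPM in siMic60 libraries, against 24.9, 34.1 and 30.4 CPM in siCTRL libraries. DSG2 rose 2.44-fold without overlap of the groups (log2 fold change 1.29, SE 0.14, adjusted p = 7.39e-06 from edgeR). DSG3 rose 1.57-fold at an adjusted p of 0.0475 from edgeR, close to the threshold, and with DESeq2, with limma-trend or without siCTRL replicate 1 a single one of these cadherins was called higher. P-cadherin CDH3 and the mesenchymal cadherin CDH11, named after their values were seen, were not called, like CDH1 and CDH2, with log2 fold changes of −0.24 and −0.23.

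Of 16 catenins, nectins and desmosomal plaque proteins, 14 were tested, of which 3 rose, 4 fell and 7 were not called (50% called, median log2 fold change 0.023). The desmosome linker DSP rose 2.33-fold, to 181 ± 21.2 CPM after siMic60, against 77.8 ± 10.5 CPM after siCTRL, in the same direction as DSG2. CTNNB1, the gene of β-catenin, rose 1.59-fold (211 ± 27.3 CPM in siMic60, 133 ± 1.76 CPM in siCTRL cells). Its relative in desmosomes, plakoglobin (JUP), fell to 62.0% of the control level, and NECTIN1, a junction immunoglobulin protein, fell to 51.3%.

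All 29 tight junction and polarity genes were tested, and 7 rose, 6 fell and 16 were not called (44.8% called, median log2 fold change 0.028). The claudin gene CLDN1 rose 3.24-fold, to 43.0 ± 11.3 CPM after siMic60, against 13.2 ± 4.94 CPM after siCTRL, and the scaffold gene TJP1 (ZO-1) rose 2.00-fold. SPINT1, an inhibitor of epithelial surface proteases, fell to 43.2% of the control level, and the polarity gene PARD6B fell to 53.5%. CLDN7, whose protein binds that of EPCAM and which was named after its values were seen, was at 23.8 ± 3.8 CPM in siMic60 and 16.4 ± 1.67 CPM in siCTRL cells (SD, n = 3 each, log2 fold change 0.53, adjusted p = 0.0234 from edgeR), and so rose while EPCAM fell.

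Keratins, the epithelial counterparts of vimentin, moved in both directions. Of 18 listed, 11 were tested, of which 3 rose and 5 fell (72.7% called, against 35.5% over all genes tested, median log2 fold change −0.53). KRT81 had the highest level by far, with 14274 ± 2145 CPM in siMic60 and 8055 ± 768 CPM in siCTRL cells, and rose 1.77-fold, with the limit that hair keratin genes have near-identical copies with which reads can be shared. KRT19 fell to 605 ± 23.9 CPM after siMic60, against 1158 ± 237 CPM after siCTRL, KRT80 fell to 59.8% and KRT15 to 38.0% of the control level. Named after their values were seen, KRT8 rose 1.53-fold whereas its usual filament partner KRT18 fell to 69.5% of the control level.

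Genes usually high in mesenchymal cells did not move as one either. Of 26, 21 were tested, of which 5 rose, 3 fell and 13 were not called (38.1% called, median log2 fold change −0.13). ITGB1, the β1 integrin gene, rose 2.19-fold, to 992 ± 70.6 CPM after siMic60, against 453 ± 19.2 CPM after siCTRL. The 5′ nucleotidase gene NT5E (CD73) rose 2.06-fold and the fibronectin receptor subunit ITGA5 rose 1.84-fold, while tropomyosin TPM1 fell to 50.7% of the control level. FN1, the gene of fibronectin, named after its values were seen, did not pass the test (log2 fold change −0.34, adjusted p = 0.0639 from edgeR).

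Of 24 corepressors that ZEB and SNAI factors recruit and enzymes of SNAIL turnover, 22 were found in the table and 21 were tested, of which 4 rose, 3 fell and 14 were not called (33.3% called, median log2 fold change 0.0059). GSK3B, a kinase that marks SNAIL for degradation, fell to 39.7% of the control level, with 61.3, 58.7 and 54.1 CPM in siMic60 libraries, against 145, 156 and 138 CPM in siCTRL libraries. FBXW7, a ubiquitin ligase subunit, fell to 62.9%. The corepressor CTBP2, through which ZEB1 represses its targets, rose 1.55-fold, and the SNAIL-binding LIM protein gene WTIP rose 2.28-fold from a low level.

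**Figure D4:**
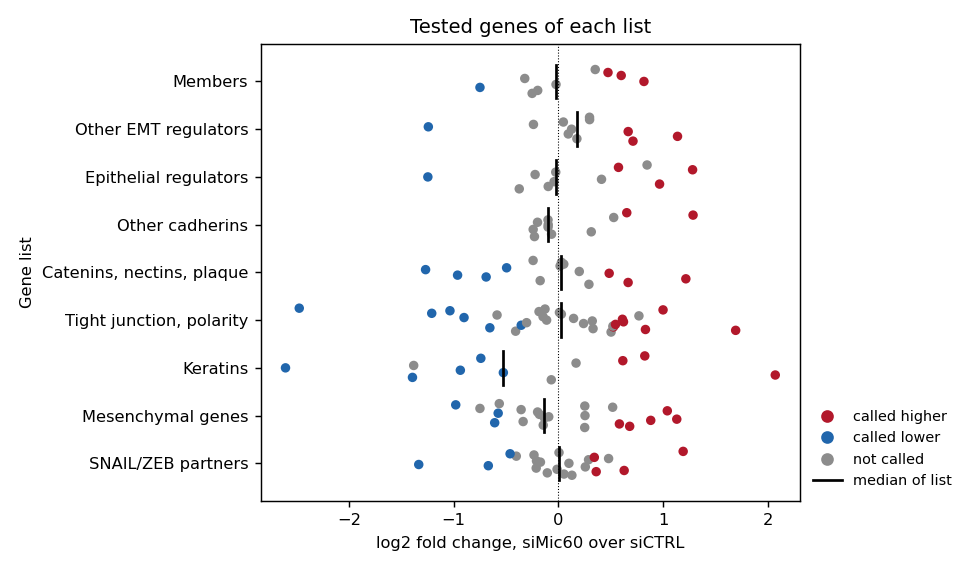
Log2 fold change of siMic60 over siCTRL for the tested genes of 9 lists, 1 point per gene, red where called higher, blue where called lower and grey where not called, with a black line at each list's median. Genes called in both directions are present in every list but the other cadherins, where 2 are higher and none lower, and the keratins have the lowest median (−0.53).

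Markers of other cells that the cultures could hold were under 5 CPM in both groups, except COL1A1 and COL6A3 among the fibroblast markers. All 9 leukocyte markers were under 5 CPM, with a summed level of 0.346 to 2.94 CPM in siMic60 and 1.32 to 2.00 CPM in siCTRL libraries, and CD3E, CD3D, MS4A1 and NKG7 were among those at 0. The 5 endothelial markers found summed to 5.65 to 9.81 CPM in siMic60 and 5.87 to 8.38 CPM in siCTRL libraries, with VWF and TEK at 0. The 8 fibroblast markers summed to 77.4 to 110 CPM in siMic60, against 349 to 442 CPM in siCTRL libraries. Of the 4 tested, 3 fell, where 17.9% of all genes tested were called lower. Nearly all of the sum came from COL1A1, which fell to 57.4 ± 10.2 CPM after siMic60, against 309 ± 53.2 CPM after siCTRL, and COL6A3, which fell to 52.7% of the control level, while the other 6 were under 5 CPM in both groups, among them PDGFRA, the remaining one that fell. The fibroblast sum was thus mostly that of COL1A1 and COL6A3, and it was lower in every siMic60 library. Whether other cells had a part in the values of the members was not tested.

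The genes whose pattern over the 6 libraries was most like that of a member were found by the root mean square difference of centred log2 CPM, among the 11497 tested genes that averaged 5 CPM or more. Nearest to VIM were HMMR (0.053), ECT2 (0.077) and FAM241B (0.082), and nearest to SNAI2 were CDC20 (0.063), PUS7 (0.078) and CCN2 (0.092). Those nearest to ZEB1 were the gene ENSG00000172660, for which no symbol was found (0.037), C1GALT1C1 (0.038) and QRICH1 (0.049). Nearest to EPCAM were SH3BP1 (0.048), RHOV (0.054) and TSPAN13 (0.056). For CDH1 they were PHF12 (0.057), ZBTB2 (0.061) and GGCT (0.061), and for CDH2 they were CGRRF1 (0.056), PCLAF (0.056) and TBC1D4 (0.060). These values describe 6 libraries, in which any gene that differs between the groups shares part of its pattern with the others that do.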

How the data were processed

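Polyadenylated RNA of PC3 cells (3 siMic60 and 3 siCTRL samples) was sequenced as QuantSeq libraries, which are read from transcript 3′ ends. The table deposited by the authors holds whole-number counts per Ensembl gene, 1 column per library, with no normalization. Per the submitters' processing notes, hg19 (GRCh37), DESeq2 and the estimator RSEM 1.2.3 are named, in roles that are not given, so the deposited counts can be rounded estimates. Which aligner, annotation and strand setting were used is stated nowhere in the sources used here. Symbols were found for 52301 of 57736 identifiers, 51959 in a table of current names and 342 in GENCODE 29, and for 213 of 216 listed genes.

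The test was that of edgeR 4.0.16 in R 4.3.3 (TMM, at least 10 counts in at least 3 libraries, quasi-likelihood test, Benjamini-Hochberg adjustment, threshold 0.05), siMic60 over siCTRL. Intervals are 95% intervals from the standard error. Total counts were 6644495 to 8779877 per library, and counting intervals cover counting error only. Within groups, the chi-square of counts between libraries was 3.57 to 13.8 per degree of freedom, so none was counted as a repeat. On simulated counts for siMic60 against siCTRL (14398 genes), the test called 15 of 67 genes changed 1.5-fold, 42 of 66 changed 2-fold, 65 of 66 changed 5-fold and 5 of 14199 unchanged genes. The simulation changed 200 genes, whereas 35.5% of all genes tested were called in the data. The adjustment of p depends on the share of genes changed, so these counts do not give the power for the members.

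The members and lists were chosen with earlier results of these data known. The genes named are all members, IMMT, the antisense partners, in each list the 4 called genes with the smallest adjusted p, cell markers of at least 5 CPM, and the 3 genes most like each of 6 members. Further genes, such as CTNNA1, ESRP2 and PDGFRA, were picked once their values were known. Some genes that fall under these rules are not reported here. Each of these choices was changed alone: the test (DESeq2 1.42.0, or limma-trend from limma 3.58.1 with a prior count of 2), the scaling (size factors of DESeq2, or library totals), the filter (none, or 50 counts), a block for the replicate number, and the omission of each library. Promoter windows are from RefSeq (GRCh38.p14), searched in Python 3.11.15, and the files' own build was not used for coordinates.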

Additional observations from a re-analysis of the deposited data

How the results depend on the processing

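Of the 9 members tested, SNAI2, EPCAM, CDH1, TWIST1 and ZEB2 kept their direction and their side of the threshold under every alternative that gave a value (12 for ZEB2 and GRHL2, which had too few counts for the minimum of 50, and 13 for the others). With 1 library left out, log2 fold changes were 0.38 to 0.75 for VIM, 0.34 to 0.58 for ZEB1, −0.36 to −0.11 for CDH2 and −0.19 to 0.30 for GRHL2, whose sign also turned with limma-trend (0.024) and with the replicate block (0.011). VIM and ZEB1 lost their calls without siMic60 replicate 3, which left 1 member called higher (1 to 3 over the libraries left out), and CDH2 was called without siCTRL replicate 1, which gave 2 members called lower (1 to 2).

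The 2 other cadherins called higher became 1 with DESeq2, limma-trend or library totals, and 1 to 2 with a library left out (1 without siMic60 replicate 1, siCTRL replicate 1 or siCTRL replicate 2). The 3 mesenchymal genes called lower became 6 with library totals, 5 with a minimum of 50 counts and 2 to 5 with a library left out (5 without siMic60 replicate 3). The 4 corepressor and turnover genes called higher became 2 with library totals, a minimum of 50 counts or the replicate block, and 2 to 4 with a library left out, and the 3 epithelial regulators called higher became 3 to 5, where the 2 and the 5 are those without siCTRL replicate 2. All other list counts stayed within 1.5 times of those given. Over all genes, 2081 to 2791 were called higher and 2067 to 2999 lower, and library totals moved the median log2 fold change to −0.054. Replicate numbers are shared by the groups, but deviations from the group means of same-numbered libraries had correlations of −0.10, −0.031 and 0.029, so the numbers were not taken as pairs. With the replicate block 4766 genes were called, against 5204 without it, and no member's call changed. Depth limits SNAI1, ZEB2 and GRHL2, which had 13 to 67 counts over a group.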

Other observations

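Of the markers of the prostate lineage, HOXB13, a homeobox gene of the prostate, fell to 205 ± 42.3 CPM after siMic60, against 351 ± 57.8 CPM after siCTRL (SD, n = 3 each). The serine protease gene TMPRSS2 fell to 46.1% of the control level. Both passed edgeR's quasi-likelihood test, at adjusted p = 0.00138 for HOXB13 and adjusted p = 0.00151 for TMPRSS2.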
